A study of Mus musculus with 12 samples.

Results

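The 46 genes described here encode proteins of the adult muscle sarcomere and of its Z-disc, and they were chosen by name as rows of the count files, from 26264 gene rows in all. By role they were 11 genes of the thin filament, 6 of the thick filament and titin, 3 of the M-band, 20 of the Z-disc and 6 that act in assembly and repair. Bulk RNA sequencing covered 12 libraries from the tibialis anterior of mice, a muscle at the front of the shin made mostly of fast fibres. The gel group held 4 libraries of left muscles injected with 50 µl of a matrix gel at 6 mg/ml, the PBS group 4 libraries of right muscles injected with 50 µl of phosphate-buffered saline, the vehicle, and the uninjured group 4 libraries of uninjured muscle. A gel and a PBS library that carry one number are read as the left and right leg of one animal, so the side of the body goes with the treatment, and the uninjured libraries came from other animals. The sources used here do not give strain, age, kind of injury or time of collection.

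The sarcomere is the contractile unit of striated muscle. Thin filaments of actin, tropomyosin and troponin slide past thick filaments of myosin. The Z-disc anchors the thin filaments of neighbouring sarcomeres through alpha-actinin, the M-band ties the thick filaments together, and titin spans from one to the other. Many of these proteins are encoded by separate genes in fast and slow fibres and in developing muscle, and assembly needs chaperones and scaffold proteins that are not part of the finished filament. Transcription factors of the MEF2 family bind a short A/T-rich site in the promoters of many sarcomere genes.

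A promoter was found for 34 of the 46 genes in the RefSeq table of build GRCm38.p6, and the 250 bases before the start were searched on both strands. The MEF2 site was found in 7 of the 34 (20.6%), against 813 of 27025 promoters in the table (3.01%). The CArG box, which binds serum response factor, was found in 4 (11.8%), against 1.40% of all promoters. The M-CAT motif CATTCC, which binds TEAD factors, was found in 8 (23.5%), against 12.6%, and the E-box CANNTG, bound by myogenic factors, in 27 (79.4%), against 66.0%. The searched windows can hold more than 1 of these motifs. Of the 15 genes with a promoter that fell in gel relative to PBS muscle, 5 held a MEF2 site (33.3%), and these 5 follow, chosen after their values were seen. The capitals mark the MEF2 match, and each sequence runs 5′ to 3′ on the gene's strand and ends at the base before the start.
Synpo2, chr3:123236150-123236399, minus strand: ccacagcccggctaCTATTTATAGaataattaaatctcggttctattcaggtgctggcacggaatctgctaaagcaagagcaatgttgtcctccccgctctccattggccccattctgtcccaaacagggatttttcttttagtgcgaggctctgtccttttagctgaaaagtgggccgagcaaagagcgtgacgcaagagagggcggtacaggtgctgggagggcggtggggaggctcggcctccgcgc
Xirp2, chr2:67445752-67446001, plus strand: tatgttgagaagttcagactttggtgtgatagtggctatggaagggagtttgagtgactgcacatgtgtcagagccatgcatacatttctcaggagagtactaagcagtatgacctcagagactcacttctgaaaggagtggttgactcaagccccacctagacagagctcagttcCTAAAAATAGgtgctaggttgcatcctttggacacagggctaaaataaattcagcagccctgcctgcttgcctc
Mylk4, chr13:32783965-32784214, minus strand: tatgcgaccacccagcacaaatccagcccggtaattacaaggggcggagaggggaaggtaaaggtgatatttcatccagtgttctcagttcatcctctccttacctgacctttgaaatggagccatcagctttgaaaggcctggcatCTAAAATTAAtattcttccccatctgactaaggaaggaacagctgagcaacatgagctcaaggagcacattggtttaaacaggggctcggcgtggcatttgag
Synpo2l, chr14:20668355-20668604, minus strand: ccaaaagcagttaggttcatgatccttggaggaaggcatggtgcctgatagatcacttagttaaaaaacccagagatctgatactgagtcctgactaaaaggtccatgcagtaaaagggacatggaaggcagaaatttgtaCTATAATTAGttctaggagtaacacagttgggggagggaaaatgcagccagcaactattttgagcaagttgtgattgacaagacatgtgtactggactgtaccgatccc
Capn3, chr2:120463343-120463592, plus strand: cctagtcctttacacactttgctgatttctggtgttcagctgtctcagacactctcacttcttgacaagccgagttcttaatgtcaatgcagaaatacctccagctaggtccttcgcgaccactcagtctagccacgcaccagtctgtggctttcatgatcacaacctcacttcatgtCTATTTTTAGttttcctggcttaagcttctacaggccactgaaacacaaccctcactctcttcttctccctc
The match lay 227 to 236 bases before the start in Synpo2, 65 to 74 in Xirp2, 94 to 103 in Mylk4, 100 to 109 in Synpo2l and 63 to 72 in Capn3. Ttn and Myom3 also held a MEF2 site and were not past the threshold between gel and PBS. A match describes letters in this window and is no evidence of binding.

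Library totals ran from 15626086 to 22182483 counts. The 46 genes took 19.8% to 20.4% of the counts in gel libraries, 19.1% to 20.9% in PBS libraries and 22.0% to 22.5% in uninjured libraries. Levels are given in CPM (read counts scaled to a common library total), after scaling by the trimmed mean of M values, and differences as log2 fold changes from edgeR with a standard error (SE). Adjusted p is edgeR's quasi-likelihood value with Benjamini-Hochberg adjustment over 13499 genes tested, all 46 genes passed the filter on low counts, and "rose" or "fell" is used for adjusted p under 0.05. In uninjured libraries the skeletal actin gene Acta1 stood at 42701 to 46275 CPM and the fast myosin gene Myh4 at 35358 to 46410 CPM, while 9 slow-fibre contractile genes together summed to 152 to 392 CPM. In bulk muscle, fewer fibres and less RNA per fibre cannot be told apart.

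Within the gel group library 3 was set apart, at 5.39 on the first principal component (50.7% of the variance), where gel libraries 1, 2 and 4 lay at -67.4, -84.1 and -91.4. The median of the 46 genes relative to the mean of uninjured muscle, on the log2 scale, was -0.57, -0.47, -0.12 and -0.62 in gel libraries 1 to 4. It was 0.06, -0.04, 0.01 and -0.24 in PBS libraries 1 to 4, and -0.03 to 0.02 in uninjured libraries. Macrophage markers moved with this difference. Their summed level, over 12 genes, was 1007, 1572, 99.6 and 1826 CPM in gel libraries 1 to 4, against 28.4 to 61.0 CPM in PBS libraries and 40.1 to 80.8 CPM in uninjured libraries. The 8 fibroblast markers summed to 3859, 3311, 740 and 4106 CPM in gel libraries 1 to 4, against 678 to 1639 CPM in PBS libraries and 786 to 1279 CPM in uninjured libraries. The collagen genes Col1a1, Col1a2 and Col3a1 weighed most in this sum, with gel means of 1318, 617 and 725 CPM against PBS means of 262, 146 and 165 CPM. The mean of Dcn was 163 CPM in gel and 141 CPM in PBS libraries. Gsn ran the other way, at 116 and 192 CPM. In edgeR, 11 of the 12 macrophage markers and 4 of the 8 fibroblast markers were higher in gel than in PBS muscle, where 16.6% of all genes were. No marker of these lists was at 0 in all libraries, and their part in the differences below was not tested.

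**Figure D1:**
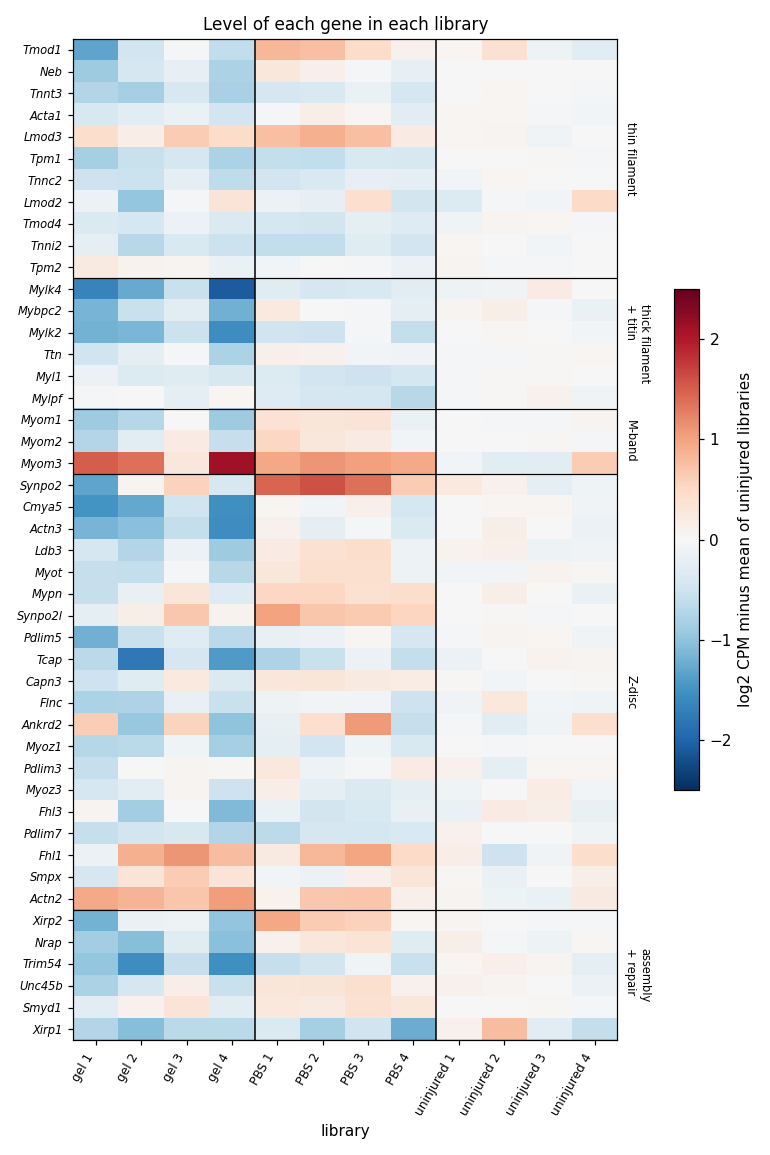
Level of each of the 46 genes (rows, grouped by role) in each of the 12 libraries (columns, gel left of PBS left of uninjured), as log2 CPM minus the mean of the uninjured libraries, from blue (lower) to red (higher). Gel libraries 1, 2 and 4 are blue over most rows, with medians of -0.57, -0.47 and -0.62, and gel library 3 is paler, with a median of -0.12.

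Gel-injected muscle was compared with PBS-injected muscle to see how the treatment moved the sarcomere genes. Of the 46 genes, 20 fell (43.5%) and 2 rose, while 24 did not pass the threshold. Over all genes tested 13.2% fell and 16.6% rose. Of 1056 other abundant genes, those with a mean of 100 CPM or more, 388 fell (36.7%) and 95 rose, with a median log2 fold change of -0.29. The median log2 fold change of the 46 genes was -0.36, in a range of -1.42 to 0.47, and the median of all genes was 0.04. The falls were spread over the roles: 9 of 20 Z-disc genes, 4 of 6 assembly and repair genes, 2 of 3 M-band genes, 3 of 6 thick filament genes and 2 of 11 thin filament genes. The rises were in Actn2 and Mylpf. This fit treats the 2 legs of an animal as independent. With each animal entered as a block, 16 of the 20 falls and 0 of the 2 rises held. The values of gel and PBS libraries did not overlap for 11 of the falling genes and both rising ones, where 9.74% of all genes were lower and 10.4% higher without overlap. Without gel library 3, 27 genes fell (58.7%, against 20.0% of all genes and 57.1% of the 1056 abundant genes) and 3 rose, with a median of -0.53. For all 20 falling genes gel library 3 was the highest of the gel libraries. Scaled by library totals only, 16 fell and 4 rose, where 7.47% of all genes fell and 25.2% rose. Of the 1056 abundant genes 25.9% fell and 19.0% rose under that scaling. Among the 46 genes the falls lost were Myom2, Pdlim5, Synpo2l and Capn3 (adjusted p 0.0603 to 0.113).

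Alpha-actinin 3, encoded by Actn3, crosslinks thin filaments at the Z-disc of fast glycolytic fibres. Its level was 4106, 4455, 6071 and 3147 CPM in gel libraries 1 to 4, against 9928, 7777, 8929 and 7199 CPM in PBS libraries 1 to 4 and 9320, 10198, 9090 and 8322 CPM in uninjured libraries. All gel libraries lay below all PBS and uninjured libraries, and PBS and uninjured libraries overlapped. Actn3 fell by 0.93 ± 0.18 (SE) on the log2 scale between gel and PBS (adjusted p = 0.00289), lower in 4 of 4 pairs of legs. Its relative Actn2, which is present in all fibre types, ran the other way, at 2436, 2283, 2063 and 2626 CPM in gel libraries, against 1341, 2021, 2039 and 1377 CPM in PBS libraries and 1327, 1169, 1132 and 1472 CPM in uninjured libraries. The lowest gel library was just above the highest PBS library, and Actn2 was 0.47 ± 0.16 higher on the log2 scale (adjusted p = 0.0400). With each animal entered as a block the call was lost (adjusted p = 0.0994), as it was without PBS library 1 or 4, gel library 1, 2 or 4, or any 1 of the 4 uninjured libraries (adjusted p 0.0522 to 0.143).

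The ratio of Actn3 to Actn2 counts showed both movements at once. It was 1.69, 1.95, 2.94 and 1.20 in gel libraries 1 to 4, against 7.41, 3.85, 4.38 and 5.23 in PBS libraries and 7.02, 8.73, 8.03 and 5.65 in uninjured libraries. No gel library reached the lowest PBS library. The sum of the 2 genes was 5772 to 8133 CPM in gel libraries, 8576 to 11269 CPM in PBS libraries and 9794 to 11367 CPM in uninjured libraries. Reads that match both genes were assigned by a counting step that the sources used here do not describe, and the same holds for the tropomyosin genes and for Acta1 and Actc1.

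Other Z-disc genes fell in gel muscle. Cmya5 encodes myospryn, a large scaffold protein. It was at 456, 530, 910 and 442 CPM in gel libraries, against 1316, 1220, 1406 and 944 CPM in PBS libraries, and fell by 1.06 ± 0.21 on the log2 scale (adjusted p = 0.00282), without overlap. Synpo2 encodes myopodin, an actin-bundling protein, and had the largest fall of the 46 genes, at -1.42 ± 0.33 (adjusted p = 0.00847). Its 4 gel libraries held 95.3, 250, 357 and 181 CPM, against 652, 717, 620 and 370 CPM in PBS libraries. Uninjured libraries held 203 to 285 CPM of Synpo2, and gel against uninjured muscle was at -0.13 ± 0.33 (adjusted p = 0.805). Ldb3, which encodes the PDZ and LIM protein ZASP that binds alpha-actinin, fell by 0.76 ± 0.17 (adjusted p = 0.00547), with gel libraries at 1722 to 2899 CPM and PBS libraries at 2935 to 4357 CPM. Myot, encoding myotilin, and Mypn, encoding the titin and nebulin partner myopalladin, fell by 0.71 ± 0.16 (adjusted p = 0.00519) and 0.62 ± 0.16 (adjusted p = 0.00992). Smaller falls were in Synpo2l, a myopodin relative, Pdlim5, a PDZ and LIM protein gene, and Capn3, which encodes a muscle protease bound to titin, at -0.53 ± 0.17, -0.48 ± 0.16 and -0.46 ± 0.14. Their calls were lost under the block, at adjusted p = 0.0698, 0.0554 and 0.0594. They were also lost when some libraries were left out, for Synpo2l without PBS library 1 or gel library 1, 2 or 4 (adjusted p up to 0.0811), for Pdlim5 without PBS library 1, 2 or 3 or gel library 1, 2 or 4 (up to 0.103), and for Capn3 without PBS library 1 or 2 or gel library 1, 2 or 4 (up to 0.0728). The other 10 Z-disc genes, among them Tcap, Flnc, Myoz1 and Fhl1, did not pass the threshold.

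**Figure D2:**
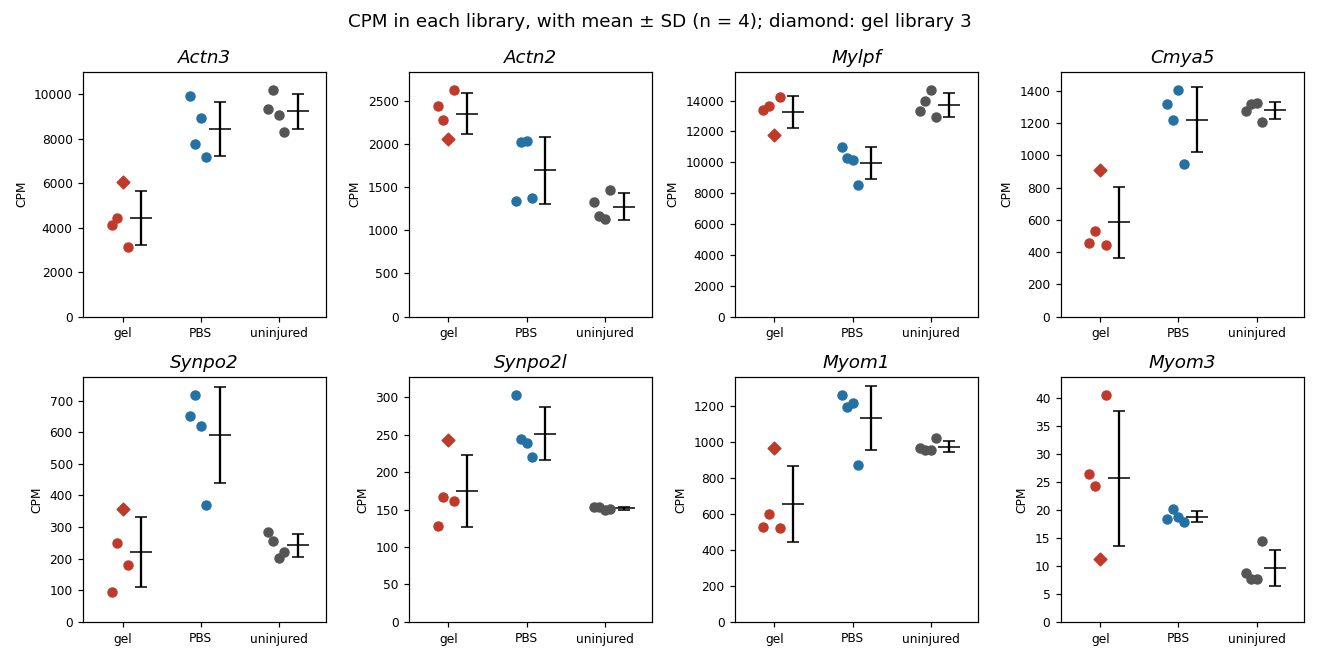
CPM of 8 genes in each library (points; the diamond is gel library 3), with the mean and SD of 4 libraries (bars), for gel, PBS and uninjured muscle from left to right, on linear axes that start at 0. Gel libraries lie below PBS libraries without overlap for Actn3, Cmya5 and Synpo2 and above them for Actn2 and Mylpf, while gel and PBS libraries overlap for Synpo2l, Myom1 and Myom3.

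Genes for assembly and repair of the sarcomere fell as well. Xirp2, encoding an actin-binding protein with Xin repeats, was at 573, 1164, 1190 and 654 CPM in gel libraries, against 2528, 2026, 1928 and 1336 CPM in PBS libraries. It fell by 1.13 ± 0.24 on the log2 scale (adjusted p = 0.00400). Nrap, encoding a scaffold of myofibril assembly, fell by 0.92 ± 0.18 (adjusted p = 0.00318), with gel libraries at 602 to 1014 CPM below all PBS libraries at 1018 to 1601 CPM. Unc45b, a chaperone gene for myosin, fell by 0.65 ± 0.17 (adjusted p = 0.0102). Trim54, encoding the ubiquitin ligase MuRF3, fell by 0.69 ± 0.20 (adjusted p = 0.0178), not past it without PBS library 3 (adjusted p = 0.0615), gel library 2 (0.0551) or gel library 4 (0.0544). Smyd1 and Xirp1 were not past the threshold.

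Among thick filament and M-band genes, the light chain kinase family gene Mylk4 fell by 0.94 ± 0.24 on the log2 scale (adjusted p = 0.0106). Its gel libraries held 330, 437, 705 and 245 CPM, against 849, 776, 797 and 874 CPM in PBS libraries, which do not overlap. Mybpc2, encoding fast myosin-binding protein C, fell by 0.75 ± 0.19 (adjusted p = 0.0101) and Mylk2, the skeletal myosin light chain kinase gene, by 0.66 ± 0.19 (adjusted p = 0.0162). Mylk2 did not pass without PBS library 3 or gel library 4 (adjusted p up to 0.0612). The M-band crosslinker gene Myom1 was at 528, 596, 966 and 523 CPM in gel libraries, against 1258, 1194, 1213 and 869 CPM in PBS libraries, and fell by 0.80 ± 0.19 (adjusted p = 0.00622). Myom2 fell by 0.54 ± 0.18 (adjusted p = 0.0351), lost under the block (0.0714) and without PBS library 1, 2 or 3 or gel library 1, 2 or 4 (up to 0.101). The fast regulatory light chain gene Mylpf went the other way: 13401, 13645, 11743 and 14196 CPM in gel libraries, against 10957, 10265, 10134 and 8508 CPM in PBS libraries, do not overlap. It was 0.41 ± 0.13 higher (adjusted p = 0.0249), lost under the block (0.112) and without PBS library 2, 3 or 4 or gel library 1, 2 or 4 (0.0513 to 0.106). Uninjured libraries held 12909 to 14682 CPM of Mylpf, and gel against uninjured muscle was at -0.05 ± 0.13 (adjusted p = 0.806). The titin gene Ttn was at -0.39 ± 0.15 (adjusted p = 0.0668), and at -0.54 without gel library 3 (adjusted p = 0.00245).

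Of the thin filament genes, Tmod1, which encodes a cap of the pointed end, and Neb, which encodes nebulin, fell. Tmod1 was at 52.2, 92.8, 127 and 84.8 CPM in gel libraries, against 231, 219, 179 and 140 CPM in PBS libraries, and fell by 1.11 ± 0.24 on the log2 scale (adjusted p = 0.00494). Neb held 2977, 4122, 4804 and 3201 CPM in gel libraries, against 6709, 6068, 5426 and 4810 CPM in PBS libraries, and fell by 0.61 ± 0.16 (adjusted p = 0.0115). The highest gel library for Neb lay only just below the lowest PBS library. The skeletal actin gene Acta1, which had the highest CPM of the 46 genes, did not pass the threshold, at -0.31 ± 0.14 (adjusted p = 0.0919), and at -0.38 without gel library 3 (adjusted p = 0.0178). The fast troponin, tropomyosin, leiomodin and other tropomodulin genes were not past the threshold.

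**Figure D3:**
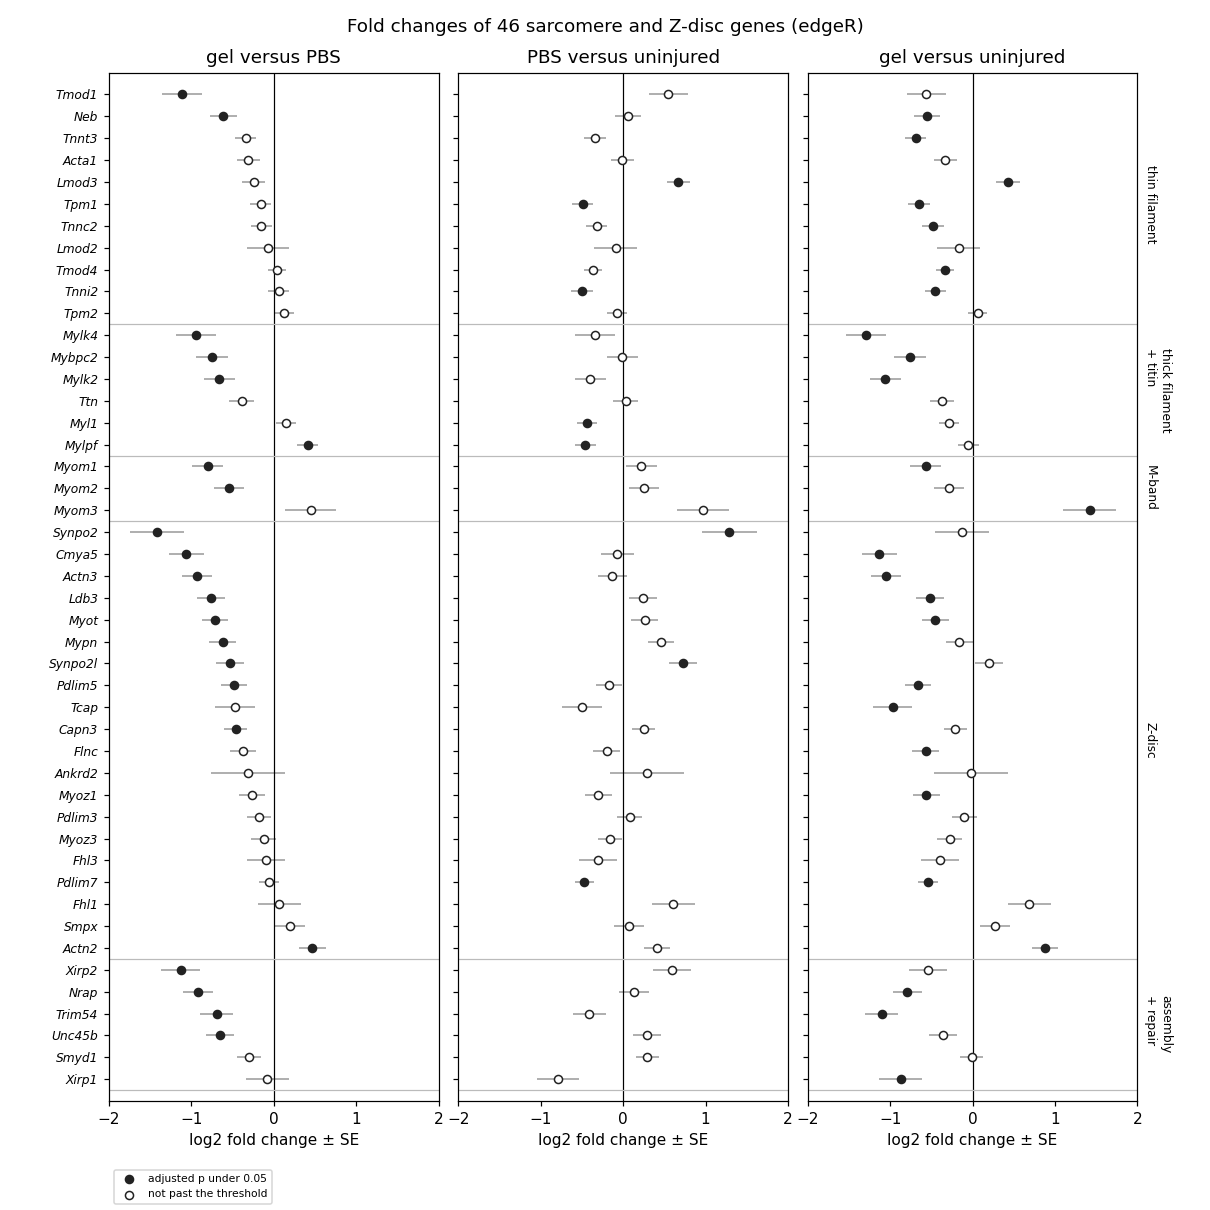
Log2 fold change (points) with SE (bars) of the 46 genes, by role and in order of the gel versus PBS value, in the 3 comparisons. Filled points have adjusted p under 0.05 in edgeR; in gel versus PBS they run from -1.42 for Synpo2 to 0.47 for Actn2.

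Muscle given PBS was next set against uninjured muscle, from which it differed in injection, injury and animal, and the effects of these cannot be told apart. Of the 46 genes 3 rose and 5 fell (10.9%), against 2.79% and 3.39% of all genes tested and 3.69% and 5.49% of the 1056 abundant genes, and the median log2 fold change was -0.01. Markers of tendon cells moved in the same comparison: 3 of 5 tested fell, with a median of -1.63, and all 6 listed summed to 75.3 to 125 CPM in PBS libraries and 183 to 240 CPM in uninjured libraries. Their part in the result was not tested. Synpo2 rose by 1.29 ± 0.33 (adjusted p = 0.0384), with PBS libraries at 370 to 717 CPM and uninjured libraries at 203 to 285 CPM. Synpo2l rose by 0.73 ± 0.17 (adjusted p = 0.0166), at 221 to 303 CPM in PBS libraries and 149 to 154 CPM in uninjured libraries. Lmod3, encoding a leiomodin that nucleates actin filaments, rose by 0.67 ± 0.14 (adjusted p = 0.0118). The falls were in genes of abundant fast contractile proteins and in one PDZ and LIM protein gene: the troponin gene Tnni2 at -0.50 ± 0.13 (adjusted p = 0.0355), the tropomyosin gene Tpm1 at -0.49 ± 0.13 (0.0363), Pdlim7 at -0.47 ± 0.12 (0.0284), Mylpf at -0.46 ± 0.13 (0.0427) and the essential light chain gene Myl1 at -0.44 ± 0.12 (0.0375). All 8 genes had groups that did not overlap, as did 7 higher and 11 lower genes of the 46 in all, against 10.4% and 10.2% of all genes. Every one of these 8 calls was lost in at least 1 of the 12 fits that left out a library.

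The losses differed in reach. Lmod3 did not pass without PBS library 2 (adjusted p = 0.0524) or uninjured library 3 (0.0535), and that of Synpo2l without PBS library 1 (0.0665) or uninjured library 2, 3 or 4 (0.0539 to 0.0622). Those of Myl1 and Tpm1 were lost without any 1 of the PBS or uninjured libraries, up to adjusted p = 0.123 and 0.124. Mylpf was lost without any 1 of these or gel library 2 (up to 0.146). Synpo2 was lost without PBS library 1, 2 or 3, gel library 2 or 4 or any uninjured library (up to 0.116). Tnni2 was lost without PBS library 1, 2 or 4 or any uninjured library (up to 0.120), and Pdlim7 without PBS library 1, 2 or 3 or any uninjured library (up to 0.102). Neither Acta1 (-0.01 ± 0.14, adjusted p = 0.971), Actn3 (-0.13 ± 0.18, 0.738), Actn2 (0.41 ± 0.16, 0.148), Ttn (0.03 ± 0.15, 0.946) nor Neb (0.06 ± 0.16, 0.878) passed the threshold. Without gel library 3, 5 rose and 9 fell, where 5.73% and 6.40% of all genes and 11.9% and 11.6% of the 1056 abundant genes did. By library totals only 5 rose and 5 fell, where 5.59% and 2.54% of all genes and 13.0% and 4.73% of the abundant genes did.

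Gel-injected muscle was also set against uninjured muscle. The 2 groups differed in gel, injection, injury and animal, and the effects of these cannot be told apart. Gel libraries are in this comparison and in that with PBS, and the uninjured libraries are in this one and in that of PBS, so the 3 sets of values share samples. Of the 46 genes 22 fell (47.8%) and 3 rose, against 11.1% and 14.5% of all genes and 28.4% and 5.97% of the 1056 abundant genes, with a median of -0.42. The groups did not overlap for 23 lower and 2 higher genes, against 11.7% and 11.3%. Without gel library 3, 32 fell (69.6%, against 17.9% of all genes and 50.8% of the abundant genes) and 3 rose. Scaled by library totals only, 13 fell and 7 rose, where 5.13% of all genes fell and 28.1% rose. Of the 1056 abundant genes 17.0% fell and 19.7% rose under that scaling. Tnni2, Tnnc2, Neb, Tmod4, Myom1, Myot, Ldb3, Flnc and Xirp1 were no longer past the threshold (adjusted p 0.0638 to 0.604). The median of all genes moved to 0.30, where the fit above had 0.03.

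The largest falls against uninjured muscle were in Mylk4, at -1.29 ± 0.24 (adjusted p = 0.00206), Cmya5, at -1.13 ± 0.21 (0.00145), Trim54, at -1.10 ± 0.20 (0.00152), Mylk2, at -1.06 ± 0.19 (0.00130), and Actn3, at -1.05 ± 0.18 (0.00102). Mylk2 was at 460 to 926 CPM in gel libraries and 1285 to 1386 CPM in uninjured libraries, and Trim54 at 100 to 198 CPM and 248 to 321 CPM. Tcap, encoding the titin cap telethonin, was at 2526, 1172, 3001 and 1519 CPM in gel libraries, against 3659, 4013, 4268 and 4200 CPM in uninjured libraries, and fell by 0.97 ± 0.24 (adjusted p = 0.00947). All these groups did not overlap. Nrap (-0.79), Mybpc2 (-0.76), Pdlim5 (-0.66) and Pdlim7 (-0.54) fell as well, as did thin filament genes that were not past the threshold between gel and PBS: the troponin genes Tnnt3, at -0.69 ± 0.13 (adjusted p = 0.00224), and Tnnc2, at -0.48 ± 0.13 (0.0136), and Tpm1, at -0.65 ± 0.13 (0.00280). Each call given in this paragraph held in all 12 fits that left out a library.

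The other 9 falls did not hold in all of these fits. Xirp1 fell by 0.87 ± 0.26, Flnc and Myom1 by 0.57, Myoz1 by 0.56, Neb by 0.55, Ldb3 by 0.52, Tnni2 and Myot by 0.45 and Tmod4 by 0.33. The call was lost for Neb without gel library 1 or 4 (adjusted p up to 0.0562), for Myoz1 without gel library 2 or 4 (up to 0.0510) and for Flnc without gel library 2 or uninjured library 2 (up to 0.0629). It was lost for Xirp1 without gel library 1, 2 or 4 or uninjured library 1 or 2 (up to 0.0773) and for Tnni2 without gel library 2 or uninjured library 1, 2 or 4 (up to 0.0652). For Ldb3 it was lost without gel library 2 or 4 or any uninjured library (up to 0.0975), and for Myom1 without gel library 1, 2 or 4 or any uninjured library (up to 0.0936). For Myot and Tmod4 it was lost without gel library 1, 2 or 4, any uninjured library, or PBS library 1 or 2, and for Myot also without PBS library 3 (up to 0.122 and 0.115). Acta1 was at -0.33 (adjusted p = 0.0879) and Ttn at -0.37 (0.0934). Synpo2, Synpo2l, Mypn, Capn3, Myom2, Xirp2, Tmod1 and Unc45b, which fell against PBS, did not pass here (adjusted p 0.0970 to 0.805).

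Myom3, Actn2 and Lmod3 were higher in gel than in uninjured muscle. Myom3, encoding the third myomesin of the M-band, was at 26.5, 24.3, 11.2 and 40.5 CPM in gel libraries and 8.81, 7.62, 7.57 and 14.4 CPM in uninjured libraries, with gel library 3 inside the uninjured range, and rose by 1.42 ± 0.32 (adjusted p = 0.00674). Its PBS libraries held 18.3, 20.1, 18.8 and 17.9 CPM. Actn2 rose by 0.88 ± 0.16 (adjusted p = 0.00168), without overlap. Lmod3 rose by 0.43 ± 0.14 (adjusted p = 0.0364), a call lost without gel library 1 or 4 or any 1 of the uninjured libraries (adjusted p up to 0.109). The 9 slow-fibre genes summed to 392 CPM in uninjured library 4 and 152 to 165 CPM in uninjured libraries 1 to 3, and uninjured library 4 also had the highest Actn2 and Myom3 of its group. The part of this library in these differences was not tested.

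Expressed per length, the genes kept a wide span of levels. On the scale of mean CPM per kilobase of the longest coding transcript in a GENCODE annotation of build GRCm38, Acta1 stood at 24557 in gel, 30504 in PBS and 30780 in uninjured muscle, and Myom3 at 4.60, 3.37 and 1.72. Transcript length went with the fold change between gel and PBS. Over the 46 genes the Spearman correlation of length with the log2 fold change was -0.53, against -0.12 over 12585 genes with a length and -0.42 over 1036 other genes at 100 CPM or more. The median log2 fold change was -0.20 for the 12 genes under 1500 bases, -0.16 for the 11 of 1500 to 2999 bases, -0.54 for the 17 of 3000 to 5999 bases and -0.84 for the 6 of 6000 bases or more. The 1036 other genes at 100 CPM or more had medians of 0.07, -0.31, -0.40 and -0.45 in these length classes. In PBS against uninjured muscle the correlation had the other sign, 0.43 over the 46 genes, 0.11 over all and 0.34 over the abundant genes, and in gel against uninjured it was -0.16. The points of each correlation share the same libraries and their depth, and the part of length or RNA quality in the differences was not tested.

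**Figure D4:**
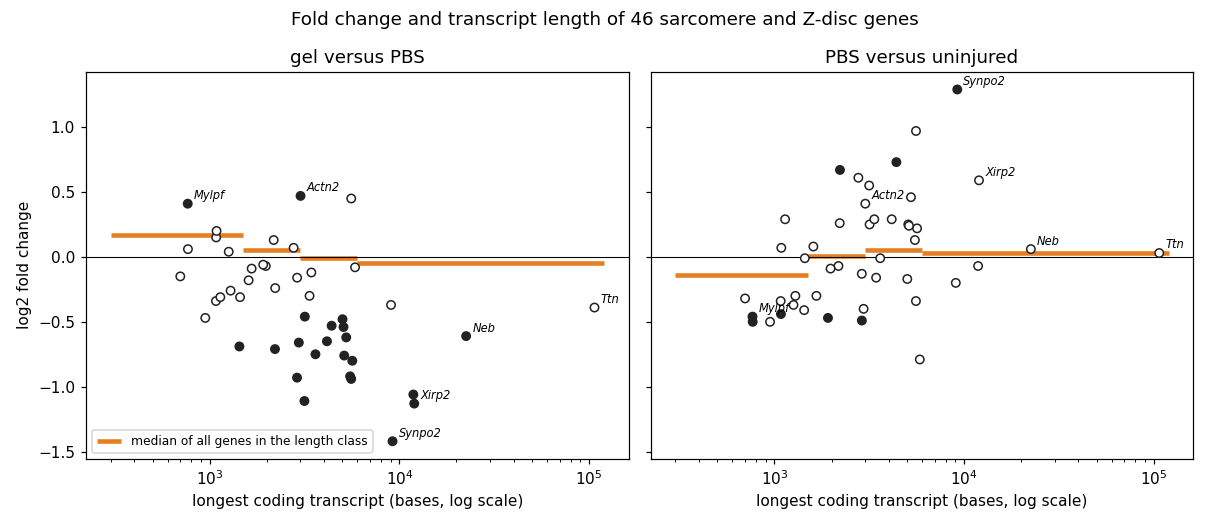
Log2 fold change of the 46 genes (points; filled, adjusted p under 0.05) against the length of the longest coding transcript (log axis), for gel versus PBS and PBS versus uninjured, with the median of all genes in each length class as orange lines. In gel versus PBS all 6 genes of 6000 bases or more are below 0, with a median of -0.84, where the line for all genes of that class is at -0.05. Other genes of that class at 100 CPM or more, not drawn, had a median of -0.45.

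Further genes of the sarcomere and its control were read from lists. Of 20 other sarcomere and Z-disc genes, 7 fell and 1 rose between gel and PBS muscle, with a median of -0.37, where 13.2% of all genes fell and 16.6% rose. The fast myosin heavy chain gene Myh4 was at 15659 to 29604 CPM in gel libraries and 30077 to 37614 CPM in PBS libraries, and fell by 0.73 ± 0.18 (adjusted p = 0.00804). The intermediate filament gene Synm fell by 1.04 ± 0.24 (adjusted p = 0.00690) and Filip1 by 0.83 ± 0.16 (0.00279). Obsl1, a titin and myomesin partner, rose by 0.44 ± 0.12 (0.0150), a call lost under the block (0.0703) and without PBS library 3 (0.0584) or gel library 2 (0.0590). In PBS against uninjured muscle 2 of the 20 rose and 1 fell, where 2.79% and 3.39% of all genes did. The fall was in the ubiquitin ligase gene Trim63, at -1.05 ± 0.18 (adjusted p = 0.00348). In gel against uninjured 4 rose and 5 fell, where 14.5% and 11.1% of all genes and 5.97% and 28.4% of the abundant genes did. The falls in gel against uninjured muscle also included Trim63, at -1.64 ± 0.19 (adjusted p = 6.47e-05).

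Developmental contractile genes went the other way. Between gel and PBS 4 of 5 rose and 0 fell, where 16.6% and 13.2% of all genes did. The embryonic myosin gene Myh3 rose by 2.48 ± 0.46 (adjusted p = 0.00409) and the cardiac troponin gene Tnnt2 by 1.95 ± 0.35 (0.00317). The perinatal myosin gene Myh8 rose by 2.77 ± 0.51 (0.00390) and the light chain gene Myl4 by 2.20 ± 0.45 (0.00583), both lost under the block (0.0548 and 0.0569). Against uninjured muscle all 5 rose in gel, where 14.5% of all genes did, and 1 rose in PBS, where 2.79% did. The latter was Actc1, by 1.76 ± 0.39 (adjusted p = 0.0216), a call lost without PBS library 1 or uninjured library 1, 2, 3 or 4 (up to 0.0657).

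Of 9 slow-fibre genes 0 passed the threshold between gel and PBS in edgeR, where 16.6% of all genes rose and 13.2% fell. The log2 fold changes of the 9 ran from -1.76 to 2.14, with a median of 0.29. The troponin genes Tnnt1 and Tnni1 were singled out after their values were seen. Tnnt1 was at 23.7, 32.6, 31.9 and 49.8 CPM in gel libraries, against 13.6, 14.6, 12.3 and 12.2 CPM in PBS libraries, and Tnni1 at 19.0, 47.6, 27.3 and 75.7 CPM in gel libraries, against 13.6, 7.72, 7.44 and 9.60 CPM in PBS libraries. The groups did not overlap for either gene. Their log2 fold changes were 1.39 ± 0.55 (adjusted p = 0.0827) and 2.14 ± 0.81 (0.0715), and 2 of the 9 had an unadjusted p under 0.05. DESeq2 called Tnni1 (0.0374) and not Tnnt1 (0.0545). Both passed with the animal block (0.00303 and 0.0385), with voom (0.0269 and 0.0310) and with the 2 groups alone (0.00934 and 0.0173). Neither passed with relative log expression scaling (0.0863 and 0.0735), no filter (0.136 and 0.118) or library totals only (0.0538 and 0.0542). Leaving out 1 library gave adjusted p from 0.00395 to 0.218 for Tnnt1 and from 0.00766 to 0.210 for Tnni1. Between gel and uninjured muscle the 9 genes ran from -2.97 to 2.67, with a median of 0.05. Of them 2 rose in gel and 0 fell, where 14.5% and 11.1% of all genes did. Tnnt1 rose by 1.83 ± 0.57 (adjusted p = 0.0381) and Tnni1 by 2.67 ± 0.84 (0.0411). Gel and uninjured libraries overlapped for both genes, with uninjured library 4 at 24.9 and 21.0 CPM. Both calls were lost without PBS library 1, 2 or 4, gel library 2 or 4, or uninjured library 1, 2 or 3, and that of Tnni1 also without PBS library 3 (up to 0.112 and 0.128).

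Of 18 regulators of sarcomere genes, 7 fell and 1 rose between gel and PBS, where 13.2% of all genes fell and 16.6% rose. Srf, encoding serum response factor, fell by 0.68 ± 0.16 (adjusted p = 0.00704), Tead1 by 0.48 ± 0.13 (0.0110) and Mef2a by 0.43 ± 0.12 (0.0134). The Mef2a call was lost under the block (0.0689), and those of Tead1 and Mef2a by library totals only (0.0940 and 0.140). Myog, encoding the differentiation factor myogenin, rose by 1.76 ± 0.43 (0.0117). Its gel and PBS libraries overlapped, with gel library 3 at 18.2 CPM and PBS library 4 at 18.7 CPM. In PBS against uninjured muscle 5 rose and 0 fell, where 2.79% and 3.39% of all genes did, led by the coactivator gene Mrtfa at 1.30 ± 0.16 (adjusted p = 0.000268), and in gel against uninjured 2 rose and 0 fell, where 14.5% and 11.1% did, Mrtfa at 1.41 ± 0.16 (6.47e-05) and Myog at 3.13 ± 0.47 (0.00104).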

How the data were processed

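Deposited values were counts of reads per gene symbol, 1 file for each of 12 libraries, not normalised by the authors, per the file headers and values. STAR, build mm39 and edgeR are named in the submitters' processing notes. The sources used here do not name the counting program, the annotation, or how strand and multiply matching reads were handled. Columns that matched no library numbered 0.

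Counts were tested with edgeR 4.0.16 in R 4.3.3: filterByExpr, scaling by the trimmed mean of M values, and a robust quasi-likelihood fit of all 12 libraries with 1 coefficient per group. Alternatives used DESeq2 1.42.0, voom from limma 3.58.1, other scaling, no filter, 2 groups only, an animal block and each library left out. Scripts were tested on simulated data. Log2 CPM used a prior count of 2. SE was computed as log2 fold change over the square root of the F statistic. Where nothing says otherwise, p-values measure the spread between libraries. Between gel and PBS they leave the pairing of legs out, except under the animal block.

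Same-numbered gel and PBS libraries were taken as legs of one animal from the titles, the left and right leg of the protocol, and an animal number and side in the deposited names. Their deviations from the group means correlated at 0.143, -0.0559, 0.311 and 0.0797, and those of differently numbered libraries at -0.267 to 0.196, so the pairing rests on the names and not on these values. Genes past the threshold could be named, with Acta1, Actn3, Actn2, Ttn and Neb always given and at most 4 with the smallest p from each other list and comparison. The 46 genes and the lists were chosen with earlier results of these data known. Replicates differed by more than sampling noise: chi-square per gene was 6.2 or more for each pair, counting genes with 10 reads or more.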

Additional observations from a re-analysis of the deposited data

Results flagged for a closer look

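Of 138 groups of 4 libraries, 1 for each of the 46 genes in each of the 3 groups, 8 held a library far from the other 3 by Dixon's ratio at its 95% critical value; chance gives about 1 in 20. In gel muscle these were Myom1 in library 3, at 966 CPM against 523 to 596 CPM in the others, Myot in library 3, at 1201 CPM against 768 to 837 CPM, and Pdlim3 in library 1, at 224 CPM against 335 to 349 CPM. In PBS muscle they were Mylk2 in library 3, at 1299 CPM against 883 to 953 CPM, Myom1 in library 4, at 869 CPM against 1194 to 1258 CPM, and Flnc in library 4, at 377 CPM against 490 to 512 CPM. In uninjured muscle they were Flnc in library 2, at 648 CPM against 500 to 511 CPM, and Capn3 in library 2, at 156 CPM against 167 to 168 CPM.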

How the results depend on the processing

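Between gel and PBS, 20 of the 46 genes fell and 2 rose. Leaving out 1 library gave 14 to 27 falls, 0 to 3 rises and 2456 to 5962 genes called in all (4022 with all libraries). With the replicate block for the animal, 16 fell, 0 rose and 2971 genes were called. The genes rising numbered 4 by library totals only, and 0 with no filter, with the 2 groups alone or with the block; the 2 groups alone called 2559 genes. Of the 20 falls, 20 held under DESeq2, voom, relative log expression scaling and no filter each, 16 under library totals only and 14 with the 2 groups alone.

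Between PBS and uninjured, 3 rose and 5 fell. The rises numbered 5 under DESeq2 and library totals only and 9 with the 2 groups alone. Of the 3 rises 2 held under voom and 2 with no filter, where Synpo2 was lost (adjusted p = 0.0626 and 0.0831). The falls numbered 9 under DESeq2, 0 with no filter and 13 with the 2 groups alone. Genes called numbered 833, against 1417 under DESeq2 and 2339 with the 2 groups alone. Without 1 library these were 0 to 5, 0 to 9 and 378 to 1693. The value of Acta1 was near 0 and turned to 0.05 by library totals only, with -0.08 to 0.06 without 1 library; Neb ran from -0.03 to 0.13 and Ttn from -0.01 to 0.06. Between gel and uninjured, 3 rose and 22 fell, against 7 and 13 by library totals only, and 2 to 4, 14 to 32 and 2275 to 5341 genes called without 1 library. Library totals only turned the sign of 8 uncalled genes in each gel comparison and 2 between PBS and uninjured; it moved the median of all genes to 0.25 between gel and PBS, and the 46 genes lay 0.41 below that, against 0.40 with the main scaling. Between gel and PBS the 1056 abundant genes had a median of -0.29 with the main scaling and -0.10 by library totals only. The 46 genes were at -0.36 and -0.17. The cause of these changes was not tested. Numbers shared with uninjured libraries mark other animals, so only gel and PBS could be blocked. All 46 genes passed the filter on low counts.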
